A study of Mus with 12 samples.

Results

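RNA of whole uteri from 8-week-old pregnant ICR mice was measured for 9 genes, namely the hedgehog genes Ihh, Ptch1, Gas1, Hhip, Smo, Gli1, Gli2 and Gli3 and the nuclear receptor gene Nr2f2. They were chosen by name, with earlier results of these data known. The row of each deposited gene table that carries the gene's name together with an Ensembl transcript was used. All 9 were found among the 87235 rows of the implantation table and among the 40787 rows of the labor table. The mice were collected at E0.5, E4.5, E15.5 or E18.5 after mating, with 3 mice and 3 libraries on each day, and no treatment or altered allele is named for any group. The study compared E0.5 with E4.5 as the implantation stage and E18.5 with E15.5 as the labor stage, days it chose by the progesterone level of pregnancy. The whole organ was extracted, so fewer cells of a type and less RNA per cell cannot be told apart in any value below.

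Hedgehog ligands are secreted proteins that bind the membrane receptor PTCH1 and so release SMO, the membrane protein that PTCH1 holds inactive. SMO then acts on the GLI transcription factors, of which GLI1 is an activator, GLI2 mainly an activator and GLI3 mainly a repressor. Ptch1, Gli1 and Hhip are themselves induced by the signal in many tissues, so their RNA is widely read as an output of the pathway. In the mouse uterus Indian hedgehog (IHH) is made by the epithelium under progesterone, PTCH1 and the GLI factors sit in the stroma, and NR2F2, also called COUP-TFII, is a stromal nuclear receptor needed for decidualization. Granulosa cells of the ovary also make Ihh and Dhh.

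The 6 implantation libraries held 58020989 to 70906881 counts, and the labor table holds no counts, so the depth of its libraries is unknown. Markers of epithelium, stroma and smooth muscle were all above 0 in each of the 12 libraries. E4.5 replicate 3 stood apart. The 5 ovary markers summed to 793 FPKM (fragments per kilobase of transcript, scaled to the mapped fragments of the library) in it and to 3.86 to 6.0 FPKM in the other 5 implantation libraries, with Star at 238 FPKM against 2.07 to 3.66 FPKM and Cyp11a1 at 378 FPKM against 0.0513 to 0.951 FPKM. Its 2 oviduct markers summed to 79.4 FPKM against 3.63 to 14.8 FPKM, and its yolk sac and fetal blood markers to 11.3 FPKM against 0 to 3.63 FPKM. Of the latter, Apoa4 had 1658 counts in this library and none in the others. Ttr went the other way, with 484 of its 488 E4.5 counts in the other E4.5 libraries. All 5 ovary markers were above 0 in E4.5 replicate 3, and the oocyte gene Oosp1 had no counts in any of the other 5. Its smooth muscle markers summed to 201 FPKM against 779 to 1190 FPKM, its stroma markers to 143 FPKM against 237 to 422 FPKM and its epithelial markers to 101 FPKM against 177 to 364 FPKM. Values of the 9 genes at the implantation stage are therefore also given without this library, as are the counts and the list genes that gain or lose the criterion without it. In the labor stage the 5 yolk sac and fetal blood markers summed to 1.40, 160 and 758 FPKM at E15.5 and to 172, 514 and 90.5 FPKM at E18.5, and the decidua markers summed to 1360 FPKM in E15.5 replicate 1 against 89.1 to 110 FPKM in the other 5 labor libraries. Nearly all of the 1360 FPKM was Prl8a2 (1342 FPKM against 40.2 to 86.0 FPKM), while the decidua markers Cryab and Alpl were not raised in that library.

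**Figure D1:**
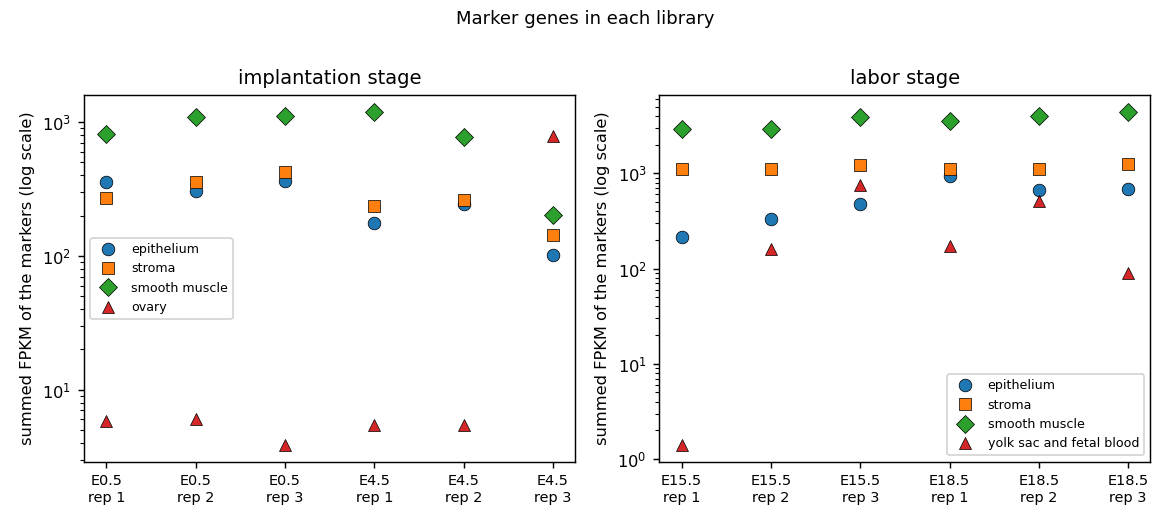
Summed FPKM of marker genes (log scale) in each library of the implantation stage (left) and the labor stage (right). E4.5 replicate 3 holds 793 FPKM of ovary markers, and the yolk sac markers of the labor libraries range from 1.40 to 758 FPKM.

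Between E0.5 and E4.5 the gene of the ligand and 2 of the 3 named output genes of the pathway differed in the same direction. Ihh, Ptch1 and Gli1 were all higher at E4.5, by 6.0, 3.33 and 6.38 times in mean FPKM. The third output gene, Hhip, did not pass the test, and neither did Gas1, Smo, Gli2, Gli3 and Nr2f2. These 3 of the 9 genes met the study's criterion, a log2 fold change of 1 or more in size whose unadjusted p was under 0.05, where 12.2% of the 59732 tested rows met it in either direction and 5.82% with the lower value at E0.5. Ihh and Ptch1, 2 of the 9, also had an adjusted p under 0.05 in the quasi-likelihood test of edgeR, adjusted by Benjamini and Hochberg over all tested rows, against 1.22% of the rows. The FPKM ranges of the days did not overlap for 6 of the 9 genes (Ihh, Ptch1, Gas1, Smo, Gli1 and Gli2), against 25.2% of the rows. Without E4.5 replicate 3 the same criterion was met by 3 of the 9 genes against 14.1% of the rows, and 4 of the 9 (Ihh, Ptch1, Gas1 and Gli1) had an adjusted p under 0.05 in edgeR against 6.08% of the rows. A negative log2 fold change of this stage means a higher level at E4.5 than at E0.5.

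Ihh encodes the epithelial ligand and is a minus-strand gene of chromosome 1 between positions 74945315 and 74951672 (GRCm38, as for all positions here). Its level was 0.624, 0.551 and 0.343 FPKM at E0.5 against 3.08, 1.78 and 4.24 at E4.5, from 92 to 164 counts at E0.5 and from 445 to 1049 counts at E4.5. Every E4.5 library was above every E0.5 library, and E4.5 replicate 3 was the highest. The log2 fold change was -2.56 (standard error 0.41, edgeR adjusted p = 0.0449). It was -2.29 without E4.5 replicate 3 (standard error 0.37, edgeR adjusted p = 0.0186), the one of 6 fits leaving out a library in which Ihh stayed past the adjusted threshold. In the other 5 the edgeR adjusted p ran from 0.0576 to 0.193, and limma on all 6 libraries gave an adjusted p of 0.0512, so that call ended although the criterion was met in each of these fits. Of the 9 epithelial markers 4 met the criterion, all with the higher value at E0.5 (2 of the 9 without E4.5 replicate 3), and the other 5 did not pass the test. Per 100 FPKM of those markers, Ihh stood at 0.176, 0.182 and 0.0944 FPKM at E0.5 and at 1.74, 0.730 and 4.18 FPKM at E4.5. The groups did not overlap, which was bound to follow, since Ihh and the marker sums each separated the days in opposite directions. The exact two-sided permutation test gave p = 0.1, the smallest that 3 against 3 libraries allow. The ratio is therefore a description only. Its highest value was in E4.5 replicate 3, whose epithelial markers summed to 101 FPKM, the lowest of the 6 libraries.

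Ptch1 encodes the receptor and is a minus-strand gene of chromosome 13 between positions 63508328 and 63573598. It had 2.82, 2.43 and 2.34 FPKM at E0.5 against 8.89, 7.20 and 9.14 at E4.5. The libraries of each day lay close together and far from those of the other day. The log2 fold change was -1.73 (standard error 0.18, edgeR adjusted p = 0.0187), and without E4.5 replicate 3 it was -1.69 (standard error 0.17, edgeR adjusted p = 0.00385). Ptch1 was past the adjusted threshold in 2 of the 6 fits that left out a library, those without E4.5 replicate 2 or 3, and in the other 4 its edgeR adjusted p ran from 0.0777 to 0.129. The implantation table also holds an assembled row named Ptch1 without an Ensembl transcript, which lies inside the gene on the same strand, from 63554056 to 63562968. This row had 3.25, 3.17 and 2.96 FPKM at E0.5 against 10.2, 8.85 and 9.30 at E4.5, and its log2 fold change was -1.59 (standard error 0.16, edgeR adjusted p = 0.0176). It therefore differed between the days in the same direction as the annotated gene, although the files do not say how reads that fit both rows were assigned.

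Gli1 encodes the GLI activator whose own transcription is the most commonly used readout of the pathway, and it is a minus-strand gene of chromosome 10 between positions 127329882 and 127341974. Its values were 0.847, 0.950 and 1.02 FPKM at E0.5 against 9.30, 6.83 and 1.84 at E4.5. All 3 E4.5 libraries were above the E0.5 libraries, but E4.5 replicate 3 was much nearer to E0.5 than to its own group. The log2 fold change was -2.68 (standard error 0.58, unadjusted p = 0.00265, edgeR adjusted p = 0.0839), so Gli1 met the criterion of the study but not the adjusted threshold. Leaving out E4.5 replicate 3 gave a log2 fold change of -3.12 (standard error 0.22, edgeR adjusted p = 0.00145), which was past both. In the other 5 fits that left out a library its edgeR adjusted p ran from 0.175 to 0.273.

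**Figure D2:**
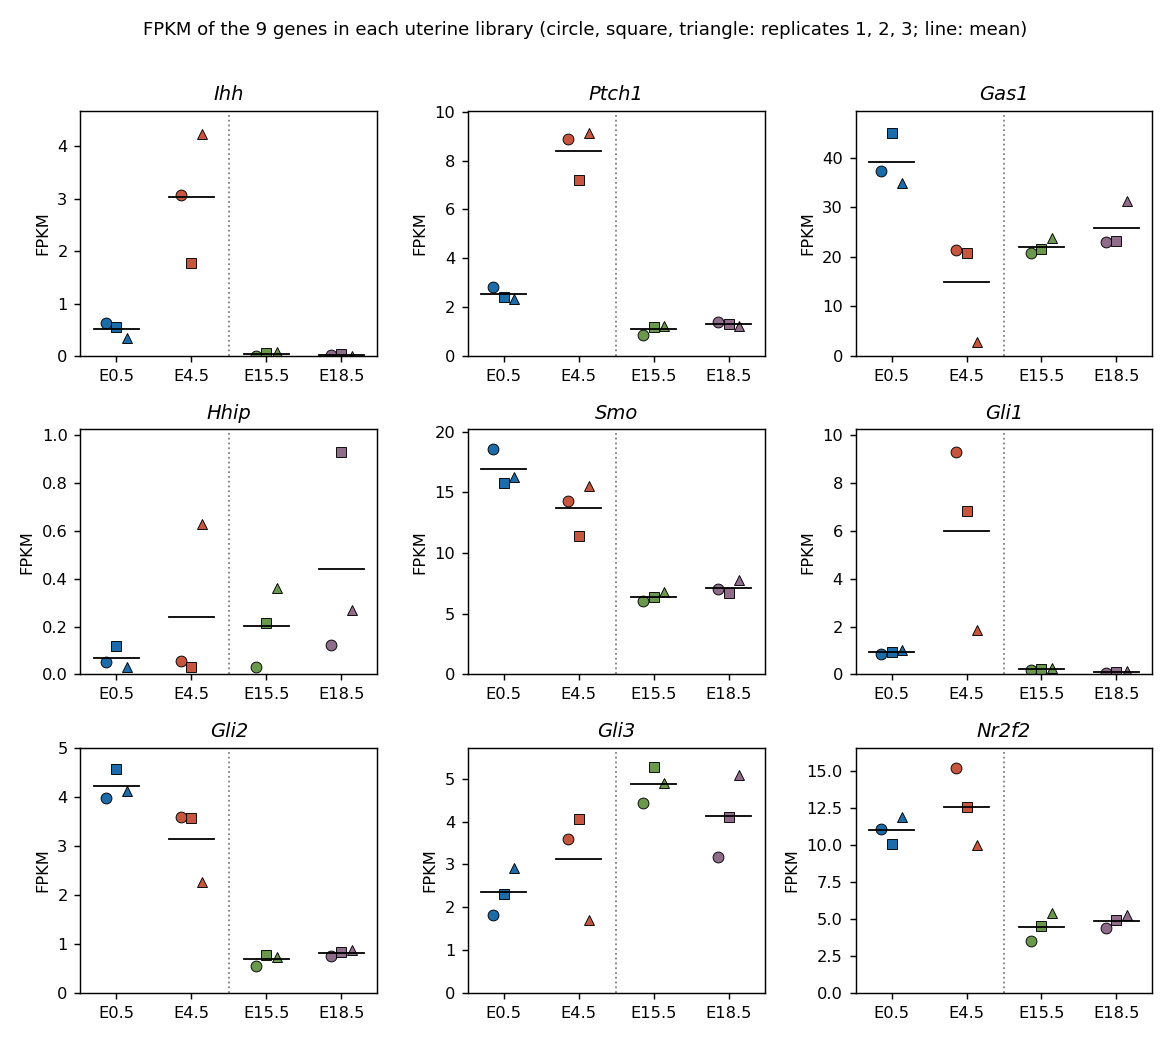
FPKM of the 9 genes in each library, by day of pregnancy, with the mean of each group as a line. The dotted line separates the tables, which were normalized separately. Ihh, Ptch1 and Gli1 are highest at E4.5, and E4.5 replicate 3 (triangle) lies apart from its group for Gas1 (2.72 FPKM), Gli1 (1.84 FPKM) and Hhip (0.628 FPKM).

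Neither of the other GLI genes passed the test. Gli2, a minus-strand gene of chromosome 1 between positions 118834132 and 119053619, had 3.99, 4.57 and 4.12 FPKM at E0.5 against 3.60, 3.57 and 2.27 at E4.5, with a log2 fold change of 0.43 (95% interval -0.13 to 0.99, edgeR adjusted p = 0.391). Its ranges did not overlap, and the log2 fold change was 0.22 without E4.5 replicate 3 (95% interval -0.14 to 0.58). Gli3, a plus-strand gene of chromosome 13 between positions 15463235 and 15730026, had 1.82, 2.32 and 2.92 FPKM at E0.5 against 3.60, 4.06 and 1.71 at E4.5, with a log2 fold change of -0.41 (95% interval -1.28 to 0.46, edgeR adjusted p = 0.609). The groups overlapped only through E4.5 replicate 3, and without it the log2 fold change was -0.71 (95% interval -1.25 to -0.17, unadjusted p = 0.0171, edgeR adjusted p = 0.133).

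The share of Gli1 in the GLI RNA is given as a description, since the exact permutation test of 3 against 3 libraries cannot go below 0.1 and the share follows the Gli1 level given above. Gli1 made up 12.7%, 12.1% and 12.7% of the summed FPKM of Gli1, Gli2 and Gli3 at E0.5 and 56.4%, 47.2% and 31.6% at E4.5. The group means were 12.5% ± 0.330 and 45.1% ± 12.5 (SD, n = 3 each), and the exact two-sided permutation test gave p = 0.1, the smallest possible. The ratio of Ptch1 to Smo FPKM was 0.151, 0.154 and 0.144 at E0.5 and 0.623, 0.632 and 0.589 at E4.5 (exact permutation p = 0.1). This ratio hardly varied within a day, and E4.5 replicate 3 lay near the other E4.5 libraries. These shares and ratios were chosen after the values of the genes had been seen.

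Gas1 encodes a membrane co-receptor that binds hedgehog ligands and was the most abundant of the 9 genes at E0.5. It is a minus-strand gene of chromosome 13 between positions 60174405 and 60177365, and had 37.4, 45 and 34.9 FPKM at E0.5 against 21.3, 20.7 and 2.72 at E4.5. It was lower at E4.5 in every library, with E4.5 replicate 3 far below the other two. Of the 6 stroma markers 3 had the higher and 3 the lower fitted value at E0.5, with a median log2 fold change of 0.18. The log2 fold change was 1.38 (standard error 0.69, edgeR adjusted p = 0.356) and did not pass either threshold. It was 0.88 without E4.5 replicate 3 (standard error 0.17, edgeR adjusted p = 0.0313), which passed the adjusted threshold but was under the fold change of the criterion.

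Smo is a plus-strand gene of chromosome 6 between positions 29735503 and 29761365, and its implantation row also carries the processed pseudogene Gm13717. It had 18.6, 15.8 and 16.3 FPKM at E0.5 against 14.3, 11.4 and 15.52 at E4.5. The ranges were adjacent without overlap, and the log2 fold change of 0.31 did not pass the test (95% interval -0.12 to 0.73, edgeR adjusted p = 0.417), nor did the value of 0.37 without E4.5 replicate 3 (95% interval -0.04 to 0.79). Hhip encodes a membrane protein that binds hedgehog ligands and withholds them from the receptor, and it is a minus-strand gene of chromosome 8 between positions 79965851 and 80058006. It had 0.0533, 0.12 and 0.0293 FPKM at E0.5 against 0.0555, 0.0299 and 0.628 at E4.5. Only E4.5 replicate 3 was above the E0.5 range, and it is the library that carried the mean of Hhip past the minimum for testing. The log2 fold change was -1.75 (standard error 1.16, edgeR adjusted p = 0.48) with that library and 0.62 (standard error 0.79, edgeR adjusted p = 0.719) without it, so its sign rested on that library.

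Nr2f2 is a minus-strand gene of chromosome 7 between positions 70351944 and 70360593. It had 11.1, 10.1 and 11.9 FPKM at E0.5 against 15.2, 12.6 and 9.99 at E4.5. The ranges overlapped, and E4.5 replicate 3 was the lowest of all 6 libraries. The log2 fold change was -0.19 (95% interval -0.71 to 0.33, edgeR adjusted p = 0.693). Without E4.5 replicate 3 the ranges did not overlap and the log2 fold change was -0.35 (95% interval -0.76 to 0.05, edgeR adjusted p = 0.298), which did not pass the test. Within the E4.5 group, replicate 3 had the highest value for Ihh, Ptch1, Hhip and Smo and the lowest for Gas1, Gli1, Gli2, Gli3 and Nr2f2, beside its high ovary markers and low stroma and muscle markers. Ihh, Ptch1 and Gli1 met the criterion with and without that library. Without it, 1 of the 5 ovary markers met the criterion as well. This was Cyp11a1, with 0.883 FPKM at E4.5 against 0.0812 FPKM at E0.5. The part of the ovarian RNA in these values was not tested.

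**Figure D3:**
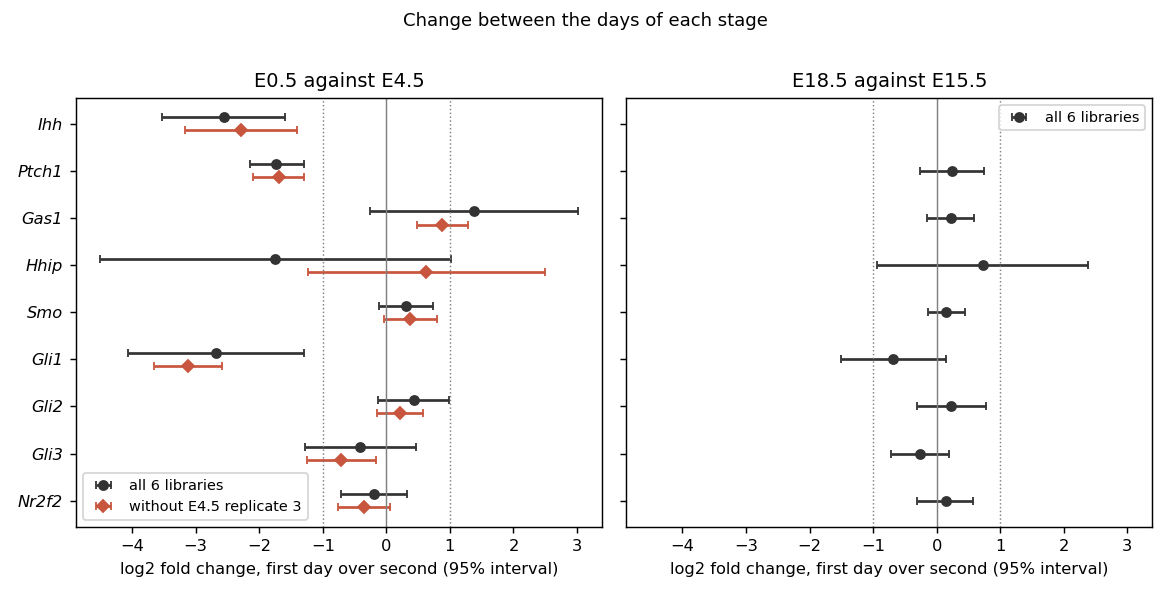
Fitted log2 fold changes with 95% intervals for E0.5 relative to E4.5 (left, edgeR) and E18.5 relative to E15.5 (right, limma), with dotted lines at -1 and 1. At the implantation stage Ihh (-2.56), Ptch1 (-1.73) and Gli1 (-2.68) lie below -1, and the sign of Hhip differs without E4.5 replicate 3 (0.62). At the labor stage every interval includes 0, and Ihh was too low to test.

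A further 55 genes of the pathway and of the uterine genes known to act with Ihh and Nr2f2 were counted, of which 51 were tested. The criterion was met by 15 of them, 7 with the higher value at E0.5 and 8 with the higher value at E4.5, and 5 had an edgeR adjusted p under 0.05. Their median log2 fold change was -0.31 beside -0.01 over all tested rows. Beside these counts, 12.2% of all tested rows met the criterion and 1.22% passed the adjusted threshold. The lists were chosen with earlier results of these data known, so the shares of all rows only describe and do not test them. Without E4.5 replicate 3, 15 met the criterion, 5 with the higher value at E0.5 and 10 with the higher value at E4.5, against 14.1% of the rows. In that fit 15 had an edgeR adjusted p under 0.05, against 6.08% of the rows, and the median was -0.13.

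Among the other ligands and co-receptors 1 of 4 tested genes met the criterion, with the higher value at E4.5, and the median log2 fold change was -0.18 (-0.01 without E4.5 replicate 3). Lrp2, a large endocytic receptor that can bind hedgehog ligands, had 0.434 to 1.20 FPKM at E0.5 against 3.00 to 7.42 at E4.5 (log2 fold change -2.94, edgeR adjusted p = 0.0555). Dhh, the desert hedgehog ligand, did not pass the test and had 0.856, 1.0 and 0.803 FPKM at E0.5 against 0.350, 0.546 and 1.60 at E4.5, again with replicate 3 apart. Its log2 fold change was 0.13 (edgeR adjusted p = 0.921) with that library and 0.97 (unadjusted p = 0.00923, edgeR adjusted p = 0.094) without it, when the days did not overlap. Shh was at 0 counts in all 3 E0.5 libraries and had 4 counts over the E4.5 libraries, too few to test. Ihh thus made up 42.2%, 35.5% and 30.0% of the ligand FPKM at E0.5 and 89.8%, 76.6% and 72.4% at E4.5, with no overlap (exact two-sided permutation p = 0.1, the smallest possible). This share is given as a description, since it follows the Ihh and Dhh levels given above.

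Of the genes for ligand processing and release, 4 of 6 tested met the criterion, with a median of -0.94. Hhat, which attaches palmitate to the ligand, was higher at E4.5 (log2 fold change -1.04, edgeR adjusted p = 0.0924), as were Scube1, a secreted protein of the family that carries ligand (-2.58, edgeR adjusted p = 0.126), and Gpc3, a glypican that competes for ligand (-1.36, edgeR adjusted p = 0.196). Scube2, of the same family as Scube1, was higher at E0.5, with 5.60, 8.07 and 5.80 FPKM against 2.49, 3.35 and 2.73 FPKM (log2 fold change 1.20, edgeR adjusted p = 0.0589). The secreted carriers therefore differed from each other in direction. Gpc3 no longer met the criterion without E4.5 replicate 3 (-0.75).

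None of the 19 genes for signal relay and GLI control, such as Sufu, Kif7 and Ift88, met the criterion, with log2 fold changes from -0.93 to 0.30, a median of -0.22 and 1 unadjusted p under 0.05 in edgeR, against 17% of the rows. Of 6 tested genes known as hedgehog targets in other tissues, 3 met it and all were higher at E0.5, opposite to Ptch1 and Gli1, and the median was 0.07. They were Mycn, a growth transcription factor (1.27, edgeR adjusted p = 0.126), Bcl2, a survival factor (1.34, edgeR adjusted p = 0.157), and Osr1, a transcription factor of mesenchyme (1.02, edgeR adjusted p = 0.145). Without E4.5 replicate 3 Mycn (0.99) and Osr1 (0.82) fell under the fold change of the criterion, whereas the cell cycle gene Ccnd1 (-1.60) and Foxf1, a mesenchymal transcription factor (-1.26), met it with the higher value at E4.5.

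Of the stromal genes of the uterine axis 3 of 7 met the criterion, all with the higher value at E4.5, and the median was -1.02. The other 4, Nr2f1, Hoxa10, Hoxa11 and Wnt4, did not pass the test. Among the 6 stroma markers, of which Hoxa11 is also one of these 7 genes, Dcn (log2 fold change 1.55) and Lum (1.5) met the criterion with the higher value at E0.5, while Col1a1 (0.44), Pdgfra (-0.15), Vim (-0.08) and Hoxa11 (-0.58) did not pass the test. The median of the 6 was 0.18 (-0.05 without E4.5 replicate 3). Their sum, to which Col1a1, Dcn and Lum gave the most on average, was 271 to 422 FPKM at E0.5 against 143 to 261 FPKM at E4.5. Their part in these values was not tested. Bmp2, a ligand that drives decidualization, had 0.484, 0.521 and 0.580 FPKM at E0.5 against 8.25, 4.92 and 3.97 at E4.5 (log2 fold change -3.44, standard error 0.36, edgeR adjusted p = 0.0187). Vcan, the matrix proteoglycan versican, had 0.861 to 1.02 FPKM at E0.5 against 6.13 to 12.7 at E4.5 (log2 fold change -3.26, standard error 0.34, edgeR adjusted p = 0.0192). Every E4.5 library was above every E0.5 library for both. Hand2, a stromal transcription factor that progesterone induces, had 1.67, 1.78 and 2.75 FPKM at E0.5 against 22.0, 20.6 and 1.13 at E4.5, and its log2 fold change was -2.83 (edgeR adjusted p = 0.212) with E4.5 replicate 3 and -3.38 (edgeR adjusted p = 0.0019) without it. Hoxa10, another stromal regulator, met the criterion only without that library (-1.55 against -1.02 with it).

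Of the upstream genes Pgr, Gata2, Sox17, Areg and Arid1a, with a median of 0.24, the criterion was met by Areg, an epidermal growth factor family ligand that progesterone induces in the epithelium. Areg had no counts at E0.5 while its E4.5 libraries held 0.827, 0.341 and 0.332 FPKM, which was at least 50.4-fold higher against a floor of 3 counts over the E0.5 group, or at least 58.7-fold without E4.5 replicate 3. It was past the minimum for testing only through the E4.5 group. Of the estrogen-response genes 3 of 4 met the criterion with the higher value at E0.5, and the median was 4.98. These were Muc1, the epithelial mucin (log2 fold change 4.34, edgeR adjusted p = 0.0275), Ltf, lactotransferrin (5.63, edgeR adjusted p = 0.0337, or 6.78 without E4.5 replicate 3, edgeR adjusted p = 0.000782), and Lcn2, lipocalin 2 (7.38, edgeR adjusted p = 0.00505). All 3 are made by the epithelium, whose 9 markers summed to 303 to 364 FPKM at E0.5 against 101 to 244 FPKM at E4.5, with 4 meeting the criterion in the same direction. The part of the epithelium in these values was not tested. Esr1, the estrogen receptor gene, had 9.62 to 15.54 FPKM at E0.5 against 5.54 to 16.8 at E4.5 and did not pass the test (log2 fold change 0.22, or -0.13 without E4.5 replicate 3).

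**Figure D4:**
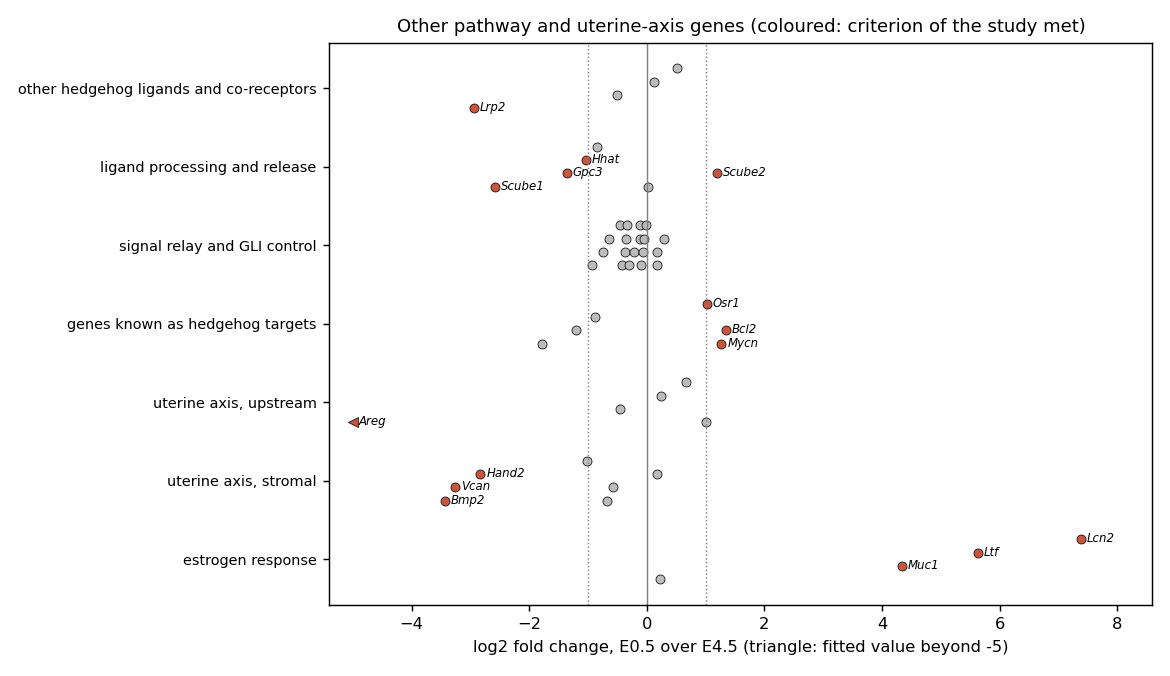
Log2 fold changes at E0.5 relative to E4.5 over all 6 libraries for the tested genes of the pathway and uterine lists, coloured where the criterion of the study was met. Lrp2 (-2.94), Bmp2 (-3.44), Vcan (-3.26) and Hand2 (-2.83) lie far to the left, Muc1 (4.34), Ltf (5.63) and Lcn2 (7.38) far to the right, and the relay genes between -0.93 and 0.30. The triangle is Areg, which had no counts at E0.5.

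In late pregnancy no member of the pathway differed between the days by either threshold. None of the 8 tested genes met the criterion at E18.5 against E15.5, where 6.05% of 30928 rows met it, and none had a limma adjusted p under 0.05, where 0.0259% of the rows did. At an unadjusted p under 0.05 the count was also 0, against 12.2% of the rows. The FPKM ranges of the days did not overlap for 1 of the 8 genes, Gli1, against 19.9% of the rows. Fold changes of this stage are on the log2(FPKM + 0.1) scale for E18.5 relative to E15.5, which understates those of genes with low values.

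Ihh was close to undetected at both days. It was listed at 0, 0.0476 and 0.0735 FPKM at E15.5 and at 0.0139, 0.0318 and 0 FPKM at E18.5, under the mean of 0.1 FPKM needed for a test. With no filter on low values its log2 fold change was -0.26 (95% interval -0.83 to 0.32, limma adjusted p = 0.712). Dhh had 0.471, 0.599 and 0.442 FPKM at E15.5 against 0.271, 0.477 and 0.480 at E18.5, above Ihh in every labor library. Ihh accordingly made up 0% to 14.3% of the ligand FPKM at E15.5 and 0% to 6.25% at E18.5. The epithelial markers summed to 213 to 475 FPKM at E15.5 and to 674 to 940 FPKM at E18.5, but trophoblast and yolk sac, whose markers these libraries also hold, express several of them.

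Ptch1 had 0.864, 1.19 and 1.24 FPKM at E15.5 against 1.40, 1.3 and 1.21 at E18.5 (log2 fold change 0.24, 95% interval -0.26 to 0.74, limma adjusted p = 0.673). Gli1 had 0.177, 0.207 and 0.258 FPKM at E15.5 against 0.0513, 0.103 and 0.141 at E18.5 (log2 fold change -0.68, standard error 0.35, unadjusted p = 0.0925, limma adjusted p = 0.485). All 3 E18.5 libraries were under the E15.5 range for Gli1, but the difference did not pass the test. Gli3 was the main GLI RNA of late pregnancy, with 4.43, 5.27 and 4.91 FPKM at E15.5 against 3.18, 4.11 and 5.09 at E18.5, or 80.0% to 85.9% of the summed GLI FPKM. Gli2 had 0.552, 0.775 and 0.728 FPKM at E15.5 against 0.745, 0.831 and 0.880 at E18.5. Neither Gli3 (log2 fold change -0.26, 95% interval -0.71 to 0.20) nor Gli2 (0.23, 95% interval -0.31 to 0.78) passed the test. The share of Gli1 was 3.44%, 3.30% and 4.38% at E15.5 and 1.29%, 2.04% and 2.31% at E18.5, with no overlap (exact two-sided permutation p = 0.1, the smallest possible).

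Gas1 had 20.7, 21.5 and 23.8 FPKM at E15.5 against 23.1, 23.3 and 31.2 at E18.5 (log2 fold change 0.22, 95% interval -0.15 to 0.59). Smo had 6.06, 6.39 and 6.79 FPKM at E15.5 against 7.02, 6.69 and 7.77 at E18.5 (0.15, 95% interval -0.13 to 0.44). Nr2f2 had 3.48, 4.53 and 5.40 FPKM at E15.5 against 4.38, 4.94 and 5.27 at E18.5 (0.14, 95% interval -0.31 to 0.58). The days overlapped for all 3 genes, and the lowest value of each was in E15.5 replicate 1, the library with the high Prl8a2. The part of decidual RNA in these values was not tested. Without E15.5 replicate 1 the log2 fold change of Nr2f2 was -0.03.

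Hhip varied widely between libraries of the same day, with 0.0296, 0.213 and 0.359 FPKM at E15.5 against 0.122, 0.929 and 0.268 at E18.5 (log2 fold change 0.73, standard error 0.70, limma adjusted p = 0.705). The days overlapped widely, and the log2 fold change was 0.11 without E18.5 replicate 2, 0.21 without E15.5 replicate 1, 1.12 without E15.5 replicate 3 and 1.22 without E18.5 replicate 1. Afp, the yolk sac gene alpha-fetoprotein, had 0.366, 80.2 and 586 FPKM in the same E15.5 libraries and 135, 427 and 71.8 FPKM in the E18.5 libraries. Afp and Hhip were lowest in E15.5 replicate 1, as were Ptch1, Gas1, Smo, Gli2 and Nr2f2. Afp was highest in E15.5 replicate 3, but Hhip in E18.5 replicate 2. Of the 5 yolk sac and fetal blood markers 1 met the criterion, Hbb-y, with the higher value at E15.5 (log2 fold change -5.62). The part of fetal membrane RNA in the Hhip values was not tested.

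Of the 51 tested genes of the other lists 4 met the criterion at E18.5 against E15.5, near the 6.05% of all rows that met it, all with the higher value at E18.5, and none had a limma adjusted p under 0.05. At an unadjusted p under 0.05 there were 6 of the 51, near the 12.2% of all rows. Their median log2 fold change was 0.09 beside 0.02 over all tested rows. Wnt4, a stromal and epithelial ligand of decidualization, had 1.01, 0.686 and 0.683 FPKM at E15.5 against 2.52, 1.75 and 1.75 at E18.5 (log2 fold change 1.24, limma adjusted p = 0.149). Muc1 (1.91, limma adjusted p = 0.251) and Ltf (2.77, limma adjusted p = 0.167) also met it, and Areg, the fourth, was listed at 0 in all 3 E15.5 libraries and at 0.270, 0.798 and 0.0224 FPKM at E18.5, so it was past the minimum for testing only through the E18.5 group, mostly through replicate 2. Beside Muc1, Ltf and Areg, which the epithelium makes, 4 of the 9 epithelial markers met the criterion with the higher value at E18.5. So did 2 of the 4 tested trophoblast and placenta markers, Tpbpa (4.02) and Psg21 (1.94), and these 4 summed to 3.79 to 33.9 FPKM at E15.5 against 43.4 to 74.5 FPKM at E18.5. The part of either tissue in these values was not tested. None of the genes for other ligands and co-receptors, ligand release, signal relay or hedgehog targets was among the 4.

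The effect of the day differed between the stages for Ptch1. Subtracting the labor log2 fold change from the implantation one gave -1.93 for Ptch1 (standard error 0.25, 95% interval -2.49 to -1.38, limma adjusted p = 0.00559), where the median over all 22056 pairs of rows was -0.13. It was the one gene of the 8 tested with an adjusted p under 0.05, against 2.64% of the pairs. Gli1 had a difference of -1.60 (standard error 0.68, unadjusted p = 0.0376, limma adjusted p = 0.239), and without E4.5 replicate 3 it was -2.28 (limma adjusted p = 0.00763). Nr2f2 (-0.31, 95% interval -0.91 to 0.29), Smo (0.15, 95% interval -0.30 to 0.60), Gli2 (0.21, 95% interval -0.45 to 0.86) and Gli3 (-0.08, 95% interval -1.02 to 0.87) did not differ past the threshold. Gas1 (1.63, 95% interval -0.23 to 3.50) and Hhip (-1.31, 95% interval -3.66 to 1.04) had wide intervals. Ihh could not be tested because of its low values in late pregnancy.

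Over the 4 days the levels can only be set side by side, since the tables were normalized separately. Ihh, Ptch1 and Gli1 had their highest mean FPKM at E4.5, then at E0.5, with both labor days below, an order that was tested only within each stage (for Ihh only within the implantation stage). The mean of Gli3 was 2.35 FPKM at E0.5, 3.12 FPKM at E4.5, 4.87 FPKM at E15.5 and 4.13 FPKM at E18.5, and within each stage its days overlapped and did not pass the test. For Nr2f2 the mean at E4.5, 12.6 ± 2.62 FPKM, and at E0.5, 11.0 ± 0.926 FPKM, were within their spread. Its means at E18.5, 4.86 ± 0.451 FPKM, and at E15.5, 4.47 ± 0.959 FPKM (SD, n = 3 each), were too.

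The rows whose pattern over the 6 libraries of a stage was nearest to that of Ihh or Nr2f2 were found by the root mean square difference of the centred log2(FPKM + 0.1) values, among rows with an Ensembl transcript and 1 FPKM or more on average. In the libraries of E0.5 and E4.5 the nearest to Ihh among 15947 rows were Fam181b (0.146), Ddah1 (0.247) and Hoxb9 (0.262). Fam181b had 0.711, 0.567 and 0.455 FPKM at E0.5 against 3.45, 2.29 and 4.04 at E4.5, and so followed Ihh in being highest in E4.5 replicate 3. The nearest to Nr2f2 were N4bp3 (0.0512), the row of Rack1 and its small RNAs (0.0573) and Gm13532 (0.0585). At the labor stage the nearest among 14254 rows were Wdr83os (0.0713), Slc22a18 (0.0799) and Mlph (0.0825) for Ihh, whose values were near 0, and the rows of Edc4 with Nrn1l (0.032), Kif9 (0.044) and Cherp with Mir7068 (0.0504) for Nr2f2.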

How the data were processed

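RNA of 12 whole uteri was sequenced by the authors. Per the study's methods, the authors removed ribosomal RNA, used Cutadapt for trimming, Bowtie2 and Tophat2 for alignment, and StringTie and Ballgown for FPKM, whereas the labels describe poly(A) selection. The submitters' processing notes name Bowtie 0.12.2, HISAT2 2.0, StringTie 1.3.0, mm8 and mm10. Positions in the implantation table overlap the RefSeq gene of the same name in GRCm38 for all 9 genes. The FPKM values were deposited by the authors as 1 table per stage, and raw counts were deposited for the implantation stage only. How reads were assigned to overlapping rows, and whether strand was used, is not given in the sources used here, so reads of overlapping genes cannot be told apart. The implantation FPKM column holds 0.0001 where the count is 0, which was set to 0. Unnamed rows took between 1.016% and 1.86% of each library's counts and stayed in the library sizes and tests.

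Counts of the implantation stage entered the quasi-likelihood F test of edgeR 4.0.16 with TMM factors. For the labor stage, limma 3.58.1 with a trend was fitted to log2(FPKM + 0.1). Both used R 4.3.3 and every row averaging 0.1 FPKM or more over its 6 libraries. Both tests were tested on simulated data. Intervals of 95% use the t distribution of each fit. The difference between stages was fitted with limma over the 12 libraries, for rows that share Ensembl transcripts. Adjusted p-values are Benjamini-Hochberg over all tested rows. The standard error of an edgeR fold change is its size divided by the square root of F. Each group holds 3 mice. The genes and lists were chosen with earlier results of these data known. Named were the 9 genes, the list genes that met the criterion in a stage, and the 3 rows nearest in pattern to Ihh and Nr2f2. Further list genes, and markers, were named after their values were seen. Alternatives were DESeq2 1.42.0, upper-quartile factors, quantile normalization, other filters and pseudocounts, limma for the implantation stage, leaving out each library in turn, and a replicate block. RefSeq sequences were not used here, and 1 gene of the lists is not reported here.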

Additional observations from a re-analysis of the deposited data

Results flagged for a closer look

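The effect of the day on Ptch1, the hedgehog receptor gene, differed between the stages. Its log2 fold change at the implantation stage minus that at the labor stage was -1.93 (standard error 0.25, limma adjusted p = 0.00559 over 22056 pairs of rows). Ptch1 was higher at E4.5 than at E0.5 in all 3 libraries, while the libraries of E15.5 and E18.5 overlapped. The adjusted p stayed under 0.05 in each of 12 fits that left out 1 library and was 0.0524 with a replicate block.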

How the results depend on the processing

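Ihh, Ptch1 and Gli1 kept their direction and met the study's criterion under all 12 alternatives of the implantation stage, and no member met it under any alternative of the labor stage. The count of members past the adjusted p was less stable. It was 3 with DESeq2, which added Gli1 (adjusted p = 8.77e-05), 1 with limma on FPKM, 0 with the replicate block (adjusted p 0.148 for Ihh and 0.0891 for Ptch1) and 0 to 4 when single libraries were left out, against 2 in the result given. It was 4 without E4.5 replicate 3, 1 without E4.5 replicate 2 and 0 without each of the others. The same fits called 0 to 3629 rows of 59732, the replicate block 0 and DESeq2 5816 of the 58247 rows it tested, against 730. At the labor stage 0 to 28 rows passed, against 8. For Hhip the log2 fold change ran from -2.47 to 0.62 and for Nr2f2 from -0.35 to 0.01 over the implantation libraries left out, and for Nr2f2 from -0.03 to 0.28 over the labor libraries. Gas1 met the criterion with DESeq2 (1.39), limma (1.85) and the replicate block (1.82). The pathway count at the labor stage was 2 with a pseudocount of 1, against 4. The count of members whose day effect differed between the stages was 0 with the replicate block and 1 to 2 with single libraries left out, 2 being without E4.5 replicate 3, and the differences for Gli2 (-0.01 to 0.33) and Gli3 (-0.45 to 0.15) changed sign. The cause of these changes was not tested. The study divided the mice into groups at random, and no pairing by replicate number is named. Same-number correlations ran from -0.0628 to 0.0182, and 2 of 12 libraries were closest to their own number. With 3 libraries per day these correlations cannot settle whether libraries of the same number shared a batch. The depth of the labor libraries is unknown, which limits what can be said of Ihh there.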

Other observations

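Assembled rows without an Ensembl transcript also carry the names of the genes described above, with 7 rows for Gli2, 3 for Nr2f2, 3 for Smo, 1 for Ptch1 and 1 for Gas1 in the implantation table and 1 for Gli2 in the labor table. Among them only the Ptch1 row met the criterion of the study at the implantation stage. Inside the span of Gli2, 5 of its 7 rows are placed on the plus strand, opposite to the gene. The plus-strand row from 118959716 to 118964379 had 4.63, 4.61 and 4.36 FPKM at E0.5 against 3.38, 4.20 and 2.59 at E4.5, with a log2 fold change of 0.43 (standard error 0.22, edgeR adjusted p = 0.366). Its level was close to that of Gli2 itself, whose mean FPKM was 4.23 ± 0.301 on the former day and 3.15 ± 0.761 on the latter (SD, n = 3 each). Whether strand was used in counting is not given in the sources used here, so reads of the 2 strands cannot be told apart.

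The noncoding gene A930032L01Rik lies on the minus strand within the span of Ptch1, from 63567098 to 63568054 on chromosome 13. It had 0.161, 0.0305 and 0.236 FPKM at E0.5 against 1.73, 0.550 and 0.986 at E4.5, with no overlap between the days. Its log2 fold change was -2.85 (standard error 0.80, edgeR adjusted p = 0.146), in the same direction as that of Ptch1, and reads shared with Ptch1 cannot be told apart from its own.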
